A study of Rattus norvegicus with 9 samples.

Results

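The genes of the vesicle fusion machinery were followed through rat spinal cord in 3 groups of 3 libraries: intact cord, injured cord and injured cord after an herbal decoction. Members were the rows of the deposited gene table whose symbol belonged to the synaptotagmin (Syt), syntaxin (Stx), syntaxin-binding protein (Stxbp), vesicle-associated membrane protein (Vamp), synaptosome-associated protein (Snap), complexin (Cplx), synapsin (Syn), SV2 or Rab3 families, together with Syp and Synpr. They numbered 64 of the 32623 rows. By general knowledge of where each gene is used, 29 were set down as neuronal, 18 as widely expressed and 17 as mixed or uncertain. No row carried the symbol Snap23 or Sv2b, and these genes were not analysed here. The symbol rule also took in Snap91, which encodes the clathrin assembly protein AP180 and not a SNARE.

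Poly(A) RNA was sequenced from rat cord, all from females of the Wistar strain that were 8 weeks old and weighed between 200 and 230 g. The Sham rats had the lamina opened over an uninjured cord and were untreated. The C_Spinal rats had a cord injury and were given distilled water by gavage, and the T_Spinal rats had a cord injury and were given 3 mL of Modified Erxian Decoction (MED) by mouth once a day. The level, method and age of the injury are not stated in the labels, which limits the groups as a model, and whether each library is a different animal is not said. A p-value here accordingly sets a difference between groups against the scatter among libraries, which may be technical scatter alone. In bulk tissue, fewer cells of a type and less RNA per cell cannot be told apart.

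A transmitter vesicle fuses with the plasma membrane when a SNARE on the vesicle (a Vamp) zips together with 2 SNAREs on the target membrane (a syntaxin and a Snap protein). Stxbp proteins hold and template the syntaxin, complexins clamp the partly assembled complex, and synaptotagmins with calcium-binding domains trigger fusion when calcium enters the terminal. Synapsins and Rab3 proteins tether and deliver vesicles, and Syp, Synpr and the SV2 proteins sit in the vesicle membrane. The same families serve every cell: other Vamps, syntaxins and Stxbp proteins carry traffic through the Golgi, endosomes and lysosomes, and some drive the release of granules from leukocytes and mast cells.

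The libraries held 57 to 69.8 M counts (M, units of 1e+06). Levels are the FPKM of the deposited table (fragments scaled to transcript kilobases and to the library's fragments in M), and changes are edgeR log2 fold changes of TMM-scaled counts. The test covered the 14791 genes whose FPKM averaged 1 or more across the 9 libraries, and a gene is said to rise or fall at a Benjamini-Hochberg adjusted p below 0.05. Of the members, 58 were tested. Cplx3, Cplx4, Syt8 and Syt15 stayed below FPKM 1 in the mean of every group, and Syt10 and Syt17 below it in the mean over all libraries. Stxbp5l and Syt16 reached FPKM 1 in Sham alone, and Syn3, Syt6, Syt14 and Stx11 in only 2 of the 3 groups, so these members entered the test through the groups where they are high. FPKM values sit above the TMM scale by a median of 0.12 (log2) for C_Spinal against Sham, by 0.04 for T_Spinal against C_Spinal and by 0.16 for T_Spinal against Sham, and changes below are on the TMM scale while percents of the Sham mean are on the FPKM scale.

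The samples carried the genes of cord tissue. A list of 16 neuronal markers summed to 3150.3 to 3213 FPKM for Sham, 489.6 to 503 for C_Spinal and 659 to 665 for T_Spinal, and 8 oligodendrocyte markers to 27025 to 27226, 8022 to 8099.5 and 9816 to 9981. A list of 12 phagocyte markers summed to 309.8 to 325, 6953 to 7088 and 6799 to 7017, and 6 Schwann cell markers to 733 to 746, 1383 to 1402 and 455 to 472. The sums for 6 astrocyte markers were 1824 to 2189.9, 3384 to 3424 and 3528 to 3768. For 5 endothelial markers, of which Cldn5 was listed at 0 in every library, they were 34.3 to 36.0, 84.3 to 87.6 and 59.1 to 61.1. Skeletal muscle markers summed to 2.22 to 2.54, 3.26 to 4.17 and 2.37 to 2.71, with Mb at 0 in Sham. Neutrophil and lymphocyte markers summed to 0.0686 to 0.144 in Sham, with S100a8, Cd79b, Cd3g and Elane at 0 there, 15.4 to 17.6 in C_Spinal and 4.23 to 4.86 in T_Spinal.

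The neuronal members summed to 2533, 2572 and 2556 FPKM for Sham, 339, 343 and 354 for C_Spinal and 505, 503 and 505 for T_Spinal. Every injured library lay far below every Sham library, and each T_Spinal library lay above each C_Spinal one. The widely expressed members together reached 474, 472 and 477 FPKM for Sham, 564, 566 and 553 for C_Spinal and 581, 581 and 589 for T_Spinal on the FPKM scale, with each injured library above each Sham one. Vamp8 made up most of that difference, with 26.5 ± 2.03 FPKM in Sham and 103 ± 5.12 in C_Spinal. Of all counts the widely expressed members took 0.106% to 0.107% in Sham, 0.108% to 0.112% in C_Spinal and 0.115% to 0.116% in T_Spinal. The mixed members reached 361, 365 and 369 FPKM for Sham, 202, 200.2 and 199 for C_Spinal and 236, 242 and 248 for T_Spinal, most of it from Syt11. All members together took 0.907% to 0.917% of the counts in Sham, 0.264% to 0.269% in C_Spinal and 0.335% to 0.336% in T_Spinal. The heat map shows the neuronal block darkening between Sham and the injured groups.

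**Figure D1:**
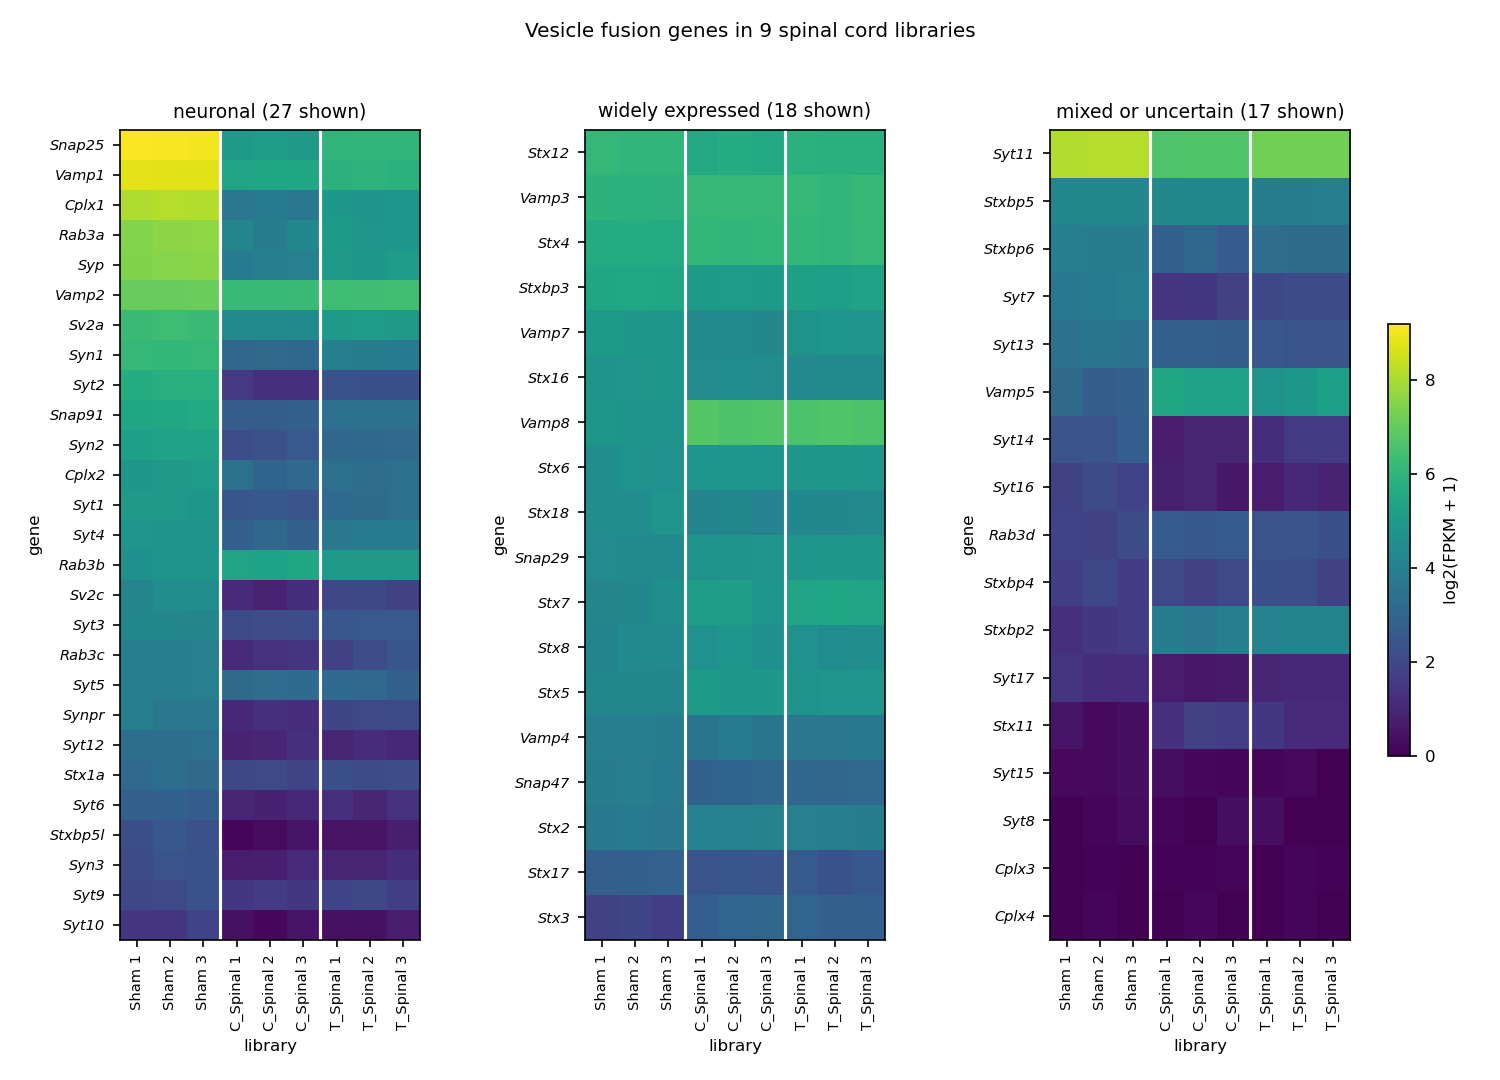
Heat map of log2(FPKM + 1) for 62 of the 64 members (rows, ordered by their Sham mean within the neuronal, widely expressed and mixed classes) in the 9 libraries (columns; white lines part Sham, C_Spinal and T_Spinal). Most rows of the neuronal panel are brighter in the 3 Sham libraries than in the 6 injured ones. All 29 neuronal members, shown or not, summed to 2533 to 2572 FPKM in Sham and 339 to 505 FPKM in the injured libraries. The widely expressed panel changes less, from 472 to 477 FPKM in Sham to 553 to 589 FPKM in the injured libraries.

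Injured cord was first set against Sham. Of the 28 neuronal members tested, 27 fell and 1, Rab3b, rose. The median log2 fold change was -3.15, and 24 fell by 2-fold or more. Of the 25 neuronal members that reached FPKM 1 in each group, 24 fell and 1 rose. Among all tested genes 37.4% fell and 38.1% rose, with a median of 0.02, and 2271 of the 14791 fell by 2-fold or more. Of the 18 widely expressed members 9 rose, 8 fell and 1 did not pass, with a median of 0.10, and of the 12 mixed members 4 rose and 7 fell, with a median of -0.49. When every gene with a count was fitted with no minimum, 28 of the 29 neuronal members fell, against 26.5% of 22666 genes. The 3 libraries of each group did not overlap for any of the 28 neuronal members or the 18 widely expressed ones, where 78.5% of all tested genes were free of overlap.

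Both neuronal vesicle SNAREs fell. Vamp1, the vesicle SNARE of fast-firing spinal and brainstem neurons, was measured at 446, 444 and 439 FPKM for Sham, 40.4, 41.8 and 41.1 for C_Spinal and 59.6, 61.7 and 57.4 for T_Spinal. The Sham libraries were all high and the other libraries all low, with C_Spinal lowest. Vamp1 fell by 3.55 (log2; SE 0.04; adjusted p = 3.84e-13), which left C_Spinal at 9.28% of the Sham mean. Vamp2, the vesicle SNARE of most central synapses, which is also made in other cells, was measured at 132, 133 and 136 FPKM for Sham, 73.7, 72.3 and 76.2 for C_Spinal and 80.0, 81.6 and 84.3 for T_Spinal. Its groups did not overlap either, but it fell by only 0.98 (log2; adjusted p = 6.81e-10). Vamp1 was thus above Vamp2 in each Sham library and below it in each injured one.

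The target-membrane SNAREs Snap25 and Stx1a fell as well. Snap25, the palmitoylated partner that supplies 2 helices to the complex, stood at 569, 551 and 529 FPKM for Sham, 30.1, 33.7 and 30.7 for C_Spinal and 64.0, 66.0 and 65.7 for T_Spinal, highest of all members in Sham. It fell by 4.25 (log2; SE 0.05; adjusted p = 1.08e-12) to 5.73% of the Sham mean. Stx1a, a neuronal target-membrane syntaxin, was far lower in Sham, at 8.31 ± 0.573 FPKM (SD, n = 3), and fell by 1.64 (log2; SE 0.10) to 2.89 ± 0.204 FPKM. Snap91, which shapes the clathrin coat when vesicles are retrieved, fell by 3.10 from 45.4 ± 2.86 FPKM.

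Among the calcium sensors, Syt2, the fast sensor of spinal and brainstem terminals, showed the largest fall of any tested member. It was measured at 51.1, 55.1 and 54.9 FPKM for Sham, 1.89, 1.41 and 1.45 for C_Spinal and 3.98, 3.73 and 3.71 for T_Spinal. All C_Spinal values lay below all T_Spinal values and both groups far below Sham. Syt2 fell by 5.20 (log2; SE 0.11; adjusted p = 3.03e-11), a 36.9-fold difference. Syt1, the fast sensor of forebrain synapses, started lower, at 29.5, 29.6 and 28.0 FPKM for Sham, 4.49, 4.84 and 4.37 for C_Spinal and 8.37, 8.49 and 9.58 for T_Spinal, and fell by 2.79 (log2; adjusted p = 5.84e-11). Syt2 exceeded Syt1 in the 3 Sham libraries and was below it in all 6 injured ones.

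Other synaptotagmins spread over a wide range. Syt3 fell by 2.49, Syt4 by 2.08, Syt6 by 2.81 and Syt12 by 3.19 (log2). Syt5 fell by 0.92 and Syt9 by 0.94 (log2), the smallest falls among neuronal synaptotagmins. Syt11, a synaptotagmin that does not bind calcium and is found in glia as well as neurons, was counted as mixed. It was the most abundant synaptotagmin, at 284, 288 and 288 FPKM for Sham, 101, 103 and 102 for C_Spinal and 152, 153 and 153 for T_Spinal, and fell by 1.61 (log2; adjusted p = 2.77e-12). Syt7, a slow high-affinity sensor also used in lysosome exocytosis, fell by 2.87 from 13 ± 1.24 FPKM.

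The complexins Cplx1 and Cplx2 and the tomosyn gene Stxbp5l fell too. Cplx1, the complexin of spinal and brainstem neurons, read 271, 286 and 281 FPKM for Sham, 11.6, 12.7 and 11.7 for C_Spinal and 28.7, 25.9 and 27.7 for T_Spinal, with no injured library above 30. It fell by 4.66 (log2; SE 0.05; adjusted p = 8.54e-13). Cplx2, more typical of forebrain neurons, read 28.4, 30.4 and 32.0 FPKM for Sham, 9.49, 6.72 and 7.76 for C_Spinal and 9.40, 8.71 and 9.46 for T_Spinal and fell by 2.04 (log2; adjusted p = 4.6e-08). Stxbp5l, whose product holds SNAREs out of the fusion complex, fell by 4.10 (log2; SE 0.47), from 4.05 ± 0.506 FPKM in Sham to below 0.5 in each C_Spinal library, and by 4.78 without C_Spinal 3.

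Proteins of the vesicle itself fell by differing amounts. Syp (synaptophysin), the most abundant of them, read 174, 181 and 190.0 FPKM for Sham, 13.1, 14.5 and 15.3 for C_Spinal and 30.6, 29.0 and 32.8 for T_Spinal and fell by 3.79 (log2; adjusted p = 1.08e-11). Its relative Synpr (synaptoporin) fell by 3.52 from 12.8 ± 1.78 FPKM. Sv2c, the SV2 form with the most restricted expression in brain, fell by 4.30 from 20.1 ± 2.58 FPKM (log2; adjusted p = 1.5e-09). Sv2a, the broadly used form, read 75.8, 79.6 and 76.7 FPKM for Sham, 19.8, 19.7 and 20.3 for C_Spinal and 30.7, 32.0 and 29.4 for T_Spinal and fell by 2.08 (log2; adjusted p = 1.63e-11). The synapsins, which hold vesicles in the reserve pool, fell by 3.29 for Syn1, 3.31 for Syn2 and 2.31 for Syn3 (log2). The Syn1 share of synapsin FPKM was 62.4% ± 1.51 for Sham, 61.0% ± 4.76 for C_Spinal and 61.3% ± 2.86 for T_Spinal.

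Rab3 proteins split. Rab3a, the vesicle GTPase of most synapses, stood at 177, 194 and 198 FPKM for Sham, 17.0, 14.1 and 18.8 for C_Spinal and 31.5, 26.6 and 27.2 for T_Spinal and fell by 3.63 (log2; adjusted p = 4.13e-10), and Rab3c fell by 3.50 from 14.7 ± 0.369 FPKM. Rab3b, used in some neurons and in secretory cells outside the nervous system, read 23.4, 25.8 and 26.1 FPKM for Sham, 40.7, 39.4 and 41.4 for C_Spinal and 29.7, 29.7 and 30.4 for T_Spinal. It was highest in the 3 C_Spinal libraries and rose by 0.57 (log2; SE 0.05; adjusted p = 4.45e-06), the sole neuronal member that did. In C_Spinal each library held more Rab3b than Rab3a FPKM, the reverse of Sham.

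The widely expressed members moved in both directions and mostly by less than 2-fold. Vamp8, the SNARE of late endosomes and of granule release in leukocytes and gland cells, was the exception that rose most, with 28.6, 26.3 and 24.5 FPKM for Sham, 108, 97.8 and 103 for C_Spinal and 95.6, 103 and 98.2 for T_Spinal. All 6 injured libraries were above all Sham libraries, and it rose by 1.84 (log2; SE 0.08; adjusted p = 5.4e-09). Stx3, a syntaxin of apical membranes and granules, rose by 1.25 from 2.55 ± 0.283 to 6.63 ± 0.734 FPKM. Rises in the other 7 lay between 0.11 and 0.61 (log2). Stx6 did not pass (0.08) but was called higher without Sham 2 (0.12, adjusted p = 0.0203). The 7 were Stx5 of the Golgi, the endosomal Stx7 and Stx8, the plasma membrane syntaxins Stx2 and Stx4, Snap29 of autophagosome fusion, and Vamp3, the recycling-endosome counterpart of Vamp2.

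The 8 widely expressed members that fell were Snap47, Vamp7, Stx17, Stx18, Stx12, Stxbp3, Stx16 and Vamp4. Snap47 fell most, by 1.13 (log2; adjusted p = 4.54e-07), from 13.9 ± 0.473 to 6.88 ± 0.651 FPKM. Vamp7, the lysosomal SNARE that also serves neurite outgrowth, read 31.1, 28.7 and 28.3 FPKM for Sham, 20.4, 20.3 and 18.1 for C_Spinal and 25.6, 27.8 and 26.6 for T_Spinal and fell by 0.70 (log2). The endosomal Stx12 fell by 0.58, Stxbp3, a binding partner of Stx4, by 0.56, and the other 4 by 0.42 to 0.63 (log2). The calls for Stx8 (adjusted p = 0.0602 without Sham 1 and 0.0712 without C_Spinal 2) and Vamp3 (0.0605 without Sham 2) did not survive leaving out a library.

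The 3 largest rises were in the mixed class. Stxbp2, which serves granule release in cytotoxic lymphocytes, mast cells and neutrophils, read 1.35, 1.82 and 2.01 FPKM for Sham, 13.6, 11.7 and 14.4 for C_Spinal and 16.1, 16.6 and 16.6 for T_Spinal. Each injured library held over 5 times the highest Sham value, and Stxbp2 rose by 2.82 (log2; SE 0.14; adjusted p = 1.71e-08). Stx11, its syntaxin partner in those cells, rose by 2.64 (log2; SE 0.36) but stayed at 2.05 ± 0.630 FPKM. Vamp5, a Vamp of muscle and endothelium among other tissues, read 8.03, 5.52 and 6.10 FPKM for Sham, 42.4, 38.3 and 38.0 for C_Spinal and 25, 28.9 and 35.7 for T_Spinal and rose by 2.47 (log2; adjusted p = 4.45e-07). Rab3d, the Rab3 of exocrine granules, rose by 0.77 (log2) from 2.76 ± 0.441 to 5.12 ± 0.230 FPKM.

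Markers of other cells also moved. All 12 phagocyte markers rose, with a median of 4.08 (log2), 5 of 6 Schwann cell markers rose, 3 of 4 tested endothelial markers rose, and both tested neutrophil markers rose from 0 or near 0 in Sham. All 16 neuronal markers fell, with a median of -3.43, as did all 8 oligodendrocyte markers. Of the 6 astrocyte markers 2 rose and 2 fell, and of the 2 tested skeletal muscle markers 1 rose and 1 fell. Over all tested genes 38.1% rose and 37.4% fell. In the Schwann cell and endothelial lists 1 marker each fell. The part these cells played in the member values was not tested. Members also share positions in the deposited table, whose genome build is not given in the sources used here. Vamp5 (chr4:100231561-100232559) and Vamp8 (chr4:100250301-100252755) are neighbours on the minus strand and both rose.

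**Figure D2:**
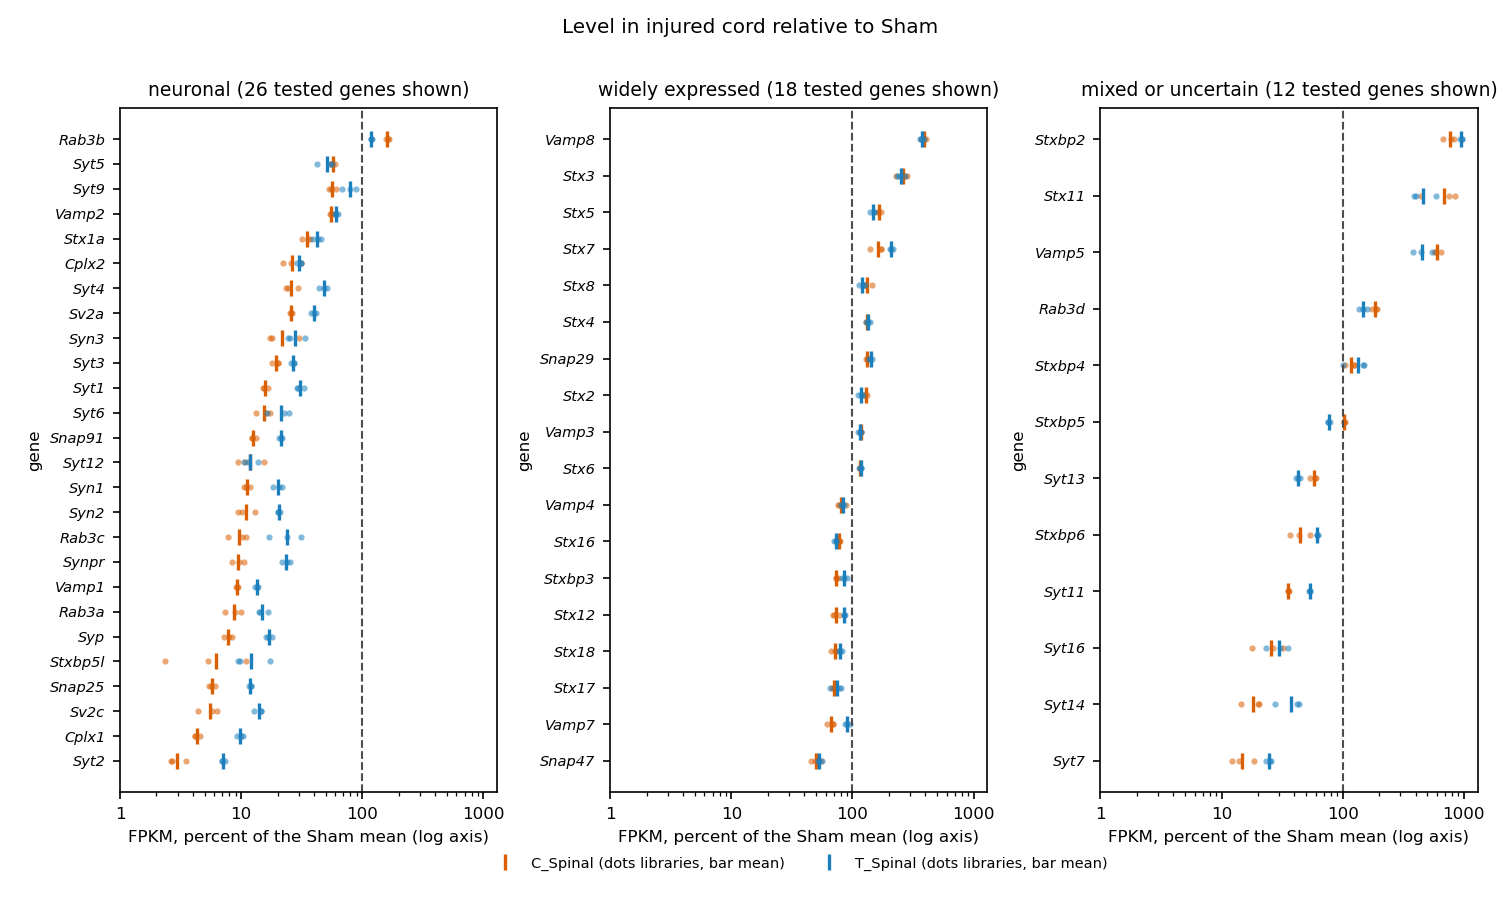
FPKM of 56 of the 58 tested members, each as a percent of its own Sham mean (log axis; dashed line at 100) in the 3 C_Spinal and 3 T_Spinal libraries (dots; bars are means), with genes ordered by their C_Spinal mean in each class. Neuronal members run from 2.95% (Syt2) upward in C_Spinal with T_Spinal mostly to their right, and widely expressed members scatter around 100.

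The make-up of the families differed between the groups. Vamp1 held 62.2% ± 0.351 of all Vamp FPKM for Sham, 11.5% ± 0.383 for C_Spinal and 15.8% ± 0.776 for T_Spinal. Vamp8 went the other way, from 3.71% ± 0.250 to 28.7% ± 0.972 and 26.3% ± 0.766, and became the largest of the 7 in both injured groups. Vamp2 had a share of 18.8% ± 0.444, 20.7% ± 0.575 and 21.8% ± 0.232. In the Rab3 family, Rab3a held 81.7% ± 0.229, 26.0% ± 2.28 and 43.1% ± 2.96 in Sham, C_Spinal and T_Spinal, and Rab3b 10.8% ± 0.0684, 63.7% ± 2.06 and 45.4% ± 1.39. Of all Stxbp FPKM, Stxbp2 held 0.729% ± 0.143, 13.5% ± 1.28 and 14.2% ± 0.257. Among complexins the Cplx1 share was 90.2% ± 0.397, 59.8% ± 5.02 and 74.7% ± 0.501, and nearly all of the rest was Cplx2. These shares are descriptions with no test, and each value is the mean ± SD of 3 libraries.

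**Figure D3:**
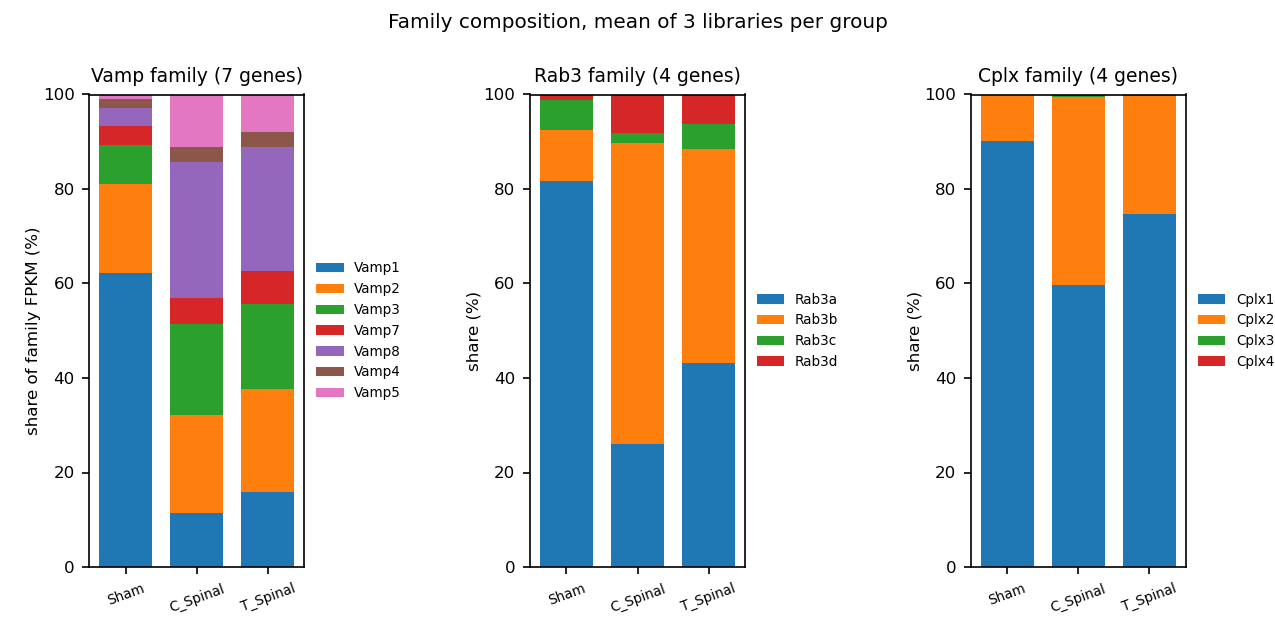
Stacked bars give the mean share (%) of each gene in the summed FPKM of the Vamp, Rab3 and Cplx families in Sham, C_Spinal and T_Spinal (3 libraries each). The dominant Sham gene of each family (Vamp1, Rab3a, Cplx1) has a smaller bar in C_Spinal and a partly larger one again in T_Spinal, while Vamp8, Rab3b and Cplx2 take larger shares after injury.

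Neuronal members were also set against a partner of the same family within each library, which removes any scaling of the whole library. The ratio of Vamp2 to Vamp3 FPKM was 2.27 ± 0.0628 for Sham, 1.07 ± 0.0288 for C_Spinal and 1.21 ± 0.0399 for T_Spinal. Rab3a over Rab3d was 69.7 ± 9.92 for Sham, 3.24 ± 0.345 for C_Spinal and 7.04 ± 0.831 for T_Spinal. Snap25 could not be set against its usual partner Snap23, and Snap29 was taken in its place after the data were seen, with a ratio of 27.5 ± 0.728 for Sham, 1.21 ± 0.0736 for C_Spinal and 2.31 ± 0.0320 for T_Spinal. In each of the 3 pairs the 3 groups did not overlap, with Sham highest, C_Spinal lowest and T_Spinal between. The exact two-sided permutation p was 0.1 for each pair and comparison, raw and Benjamini-Hochberg adjusted over 15 tests, which is the smallest that 3 against 3 libraries allow, so none can pass 0.05. The T_Spinal ratio exceeded the C_Spinal one by a factor of 1.13 for Vamp2/Vamp3, 1.92 for Snap25/Snap29 and 2.17 for Rab3a/Rab3d.

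**Figure D4:**
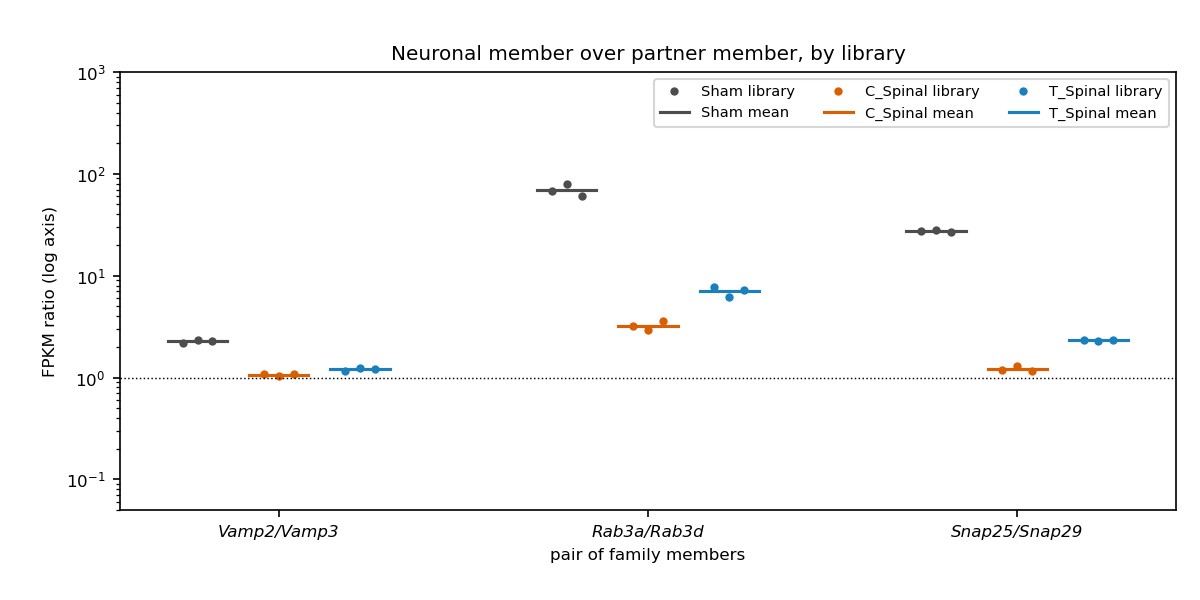
Ratio of the FPKM of a neuronal member to that of its partner in each library (dots; log axis; short lines are group means; dotted line at 1) for 3 pairs in Sham, C_Spinal and T_Spinal. Every pair is highest in Sham and lowest in C_Spinal, and Vamp2/Vamp3 falls from a mean of 2.27 to 1.07, close to the line at 1.

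Promoters are shown for 2 neuronal members that fell and 2 other members that rose, to set the sequence next to the opposite changes. Vamp1 and Syn1 are the only matched members with TGACGTCA, as given below, so they do not stand for their class. RefSeq entries for GRCr8 were matched by symbol for 51 of the 64 members. Each line gives the 250 bases before the annotated start, 5′ to 3′ on the gene's strand, at Vamp1 chr4:159698644-159698893 (plus), Syn1 chrX:3725495-3725744 (plus), Vamp8 chr4:106005643-106005892 (minus) and Stxbp2 chr12:6487076-6487325 (plus). Capitals mark matches to TGACGTCA (the cAMP response element), GGGCGG (the GC box), TATAAA (the TATA box) or CACGTG (an E-box), searched on both strands.
Vamp1: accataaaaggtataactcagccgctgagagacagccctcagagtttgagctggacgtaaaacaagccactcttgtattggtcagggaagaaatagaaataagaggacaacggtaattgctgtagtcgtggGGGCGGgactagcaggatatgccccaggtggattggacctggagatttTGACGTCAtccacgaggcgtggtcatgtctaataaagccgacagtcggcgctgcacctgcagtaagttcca
Syn1: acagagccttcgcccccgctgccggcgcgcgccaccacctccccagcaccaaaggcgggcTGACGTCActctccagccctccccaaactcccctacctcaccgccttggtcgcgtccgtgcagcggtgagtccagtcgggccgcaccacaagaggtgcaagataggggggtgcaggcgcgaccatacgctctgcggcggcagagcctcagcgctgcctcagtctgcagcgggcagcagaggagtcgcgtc
Vamp8: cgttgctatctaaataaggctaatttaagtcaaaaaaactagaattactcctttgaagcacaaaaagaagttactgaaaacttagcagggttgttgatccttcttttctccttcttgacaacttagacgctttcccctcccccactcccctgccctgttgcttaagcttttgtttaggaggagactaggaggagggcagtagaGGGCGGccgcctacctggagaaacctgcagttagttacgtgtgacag
Stxbp2: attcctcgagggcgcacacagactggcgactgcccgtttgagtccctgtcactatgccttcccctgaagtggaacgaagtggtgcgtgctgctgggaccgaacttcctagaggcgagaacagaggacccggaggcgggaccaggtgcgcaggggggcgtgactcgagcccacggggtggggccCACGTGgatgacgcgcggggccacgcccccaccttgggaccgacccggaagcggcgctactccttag
In Vamp1 the GC box match begins 119 and the TGACGTCA match 71 bases before the start. In Syn1 TGACGTCA begins 190 bases before it, in Vamp8 the GC box 47 and in Stxbp2 CACGTG 67 bases before it.

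The motifs were chosen after the sequences had been seen, none overlaps another, and a match is a description and not a binding site. TGACGTCA was in 2 of 21 matched neuronal promoters (Syn1 and Vamp1), 0 of 16 widely expressed and 0 of 14 mixed ones, and in 1.59% of all 33469 promoters of this length. GGGCGG was in 14, 12 and 6 of them and in 30.5% of all. TATAAA was in 1, 1 and 2 and in 12.9% of all, and CACGTG in 1, 2 and 2 and in 5.59% of all. Median GC content was alike in the 3 classes, at 60.4% in neuronal, 60.2% in widely expressed and 62.8% in mixed promoters, against 51.2% over all. The median number of CG pairs per promoter was 12, 16.5 and 14 in these classes, against 5 over all.

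T_Spinal was next set against C_Spinal, which compares decoction with water in injured cord. Of the 28 tested neuronal members 19 rose, 1 fell (Rab3b) and 8 did not pass, with a median log2 fold change of 0.72, and 8 rose by 2-fold or more. Over all tested genes 20.7% rose and 17.9% fell (38.6% either way), with a median of -0.00, and 234 of the 14791 rose by 2-fold or more. Of the 18 widely expressed members 4 rose, 2 fell and 12 did not pass (median -0.01), and of the 12 mixed members 4 rose, 3 fell and 5 did not pass (median 0.17). Without an expression minimum 19 of the 29 neuronal members rose and 1 fell, and of 22666 genes 13% rose and 10.7% fell. The groups did not overlap for 23 neuronal, 11 widely expressed and 9 mixed members, and for 52.1% of tested genes. This comparison and the one with Sham share the C_Spinal libraries, so opposite changes in the 2 are not independent of each other.

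Sv2c had the largest rise of the neuronal members. It rose by 1.30 (log2; SE 0.14; adjusted p = 6.89e-05), from 1.16, 0.890 and 1.28 FPKM in C_Spinal to 2.93, 2.95 and 2.55 in T_Spinal. Synpr rose by 1.28 (SE 0.13) and Rab3c by 1.28 (SE 0.21), the latter with T_Spinal libraries spread from 2.49 to 4.56 FPKM. Syt2 rose by 1.23 (adjusted p = 9.08e-06) and Cplx1 by 1.16 (adjusted p = 1.43e-07). Syp rose by 1.07 and Snap25 by 1.01 (log2). Vamp1, a vesicle SNARE, rose by 0.50 (log2; adjusted p = 2.62e-06).

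Middling rises were seen for Syt1 (0.91), Syn2 (0.87), Syt4 (0.86), Syn1 (0.82), Rab3a (0.74), Snap91 (0.71), Sv2a (0.59) and Syt3 (0.44), all log2 fold changes. Vamp2 rose by only 0.11 (log2; adjusted p = 0.0196), and that call was lost without C_Spinal 1 or 2 or T_Spinal 2 or 3 (adjusted p = 0.0509 to 0.0669). The 8 neuronal members that did not pass were Cplx2 at 0.16, Stx1a at 0.25, Stxbp5l at 0.91, Syn3 at 0.30, Syt5 at -0.20, Syt6 at 0.42, Syt9 at 0.44 and Syt12 at -0.03 (log2). Syt12, which does not bind calcium, read 0.856, 0.986 and 1.39 FPKM in C_Spinal and 0.951, 1.26 and 1.04 in T_Spinal, so its groups overlapped, each at 11.9% of Sham.

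Without C_Spinal 3, the C_Spinal library with the highest values of both, Stxbp5l rose by 1.59 (adjusted p = 0.0118) and Syn3 by 0.61 (adjusted p = 0.0435), and without C_Spinal 1 Cplx2 rose by 0.31 (adjusted p = 0.0193). Stx1a passed under 5 of the other settings, with log2 fold changes of 0.22 to 0.29. Syt6 (0.44) and Syt9 (0.46) passed under DESeq2, and after scaling to a common FPKM sum (0.27 and 0.38). Syt6 also passed under total-count scaling (0.45) and without T_Spinal 2 (0.57, adjusted p = 0.00822). Syt9 also passed under limma on log2(FPKM + 1) (0.33) and log2(FPKM + 0.1) (0.45). The 95% interval of the Syt12 difference ran from -0.45 to 0.38 and that of Syt5 from -0.46 to 0.05 (log2).

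Of the others, Vamp7 rose most among widely expressed members, by 0.41 (log2; SE 0.07; adjusted p = 0.00164), and Stx12 rose by 0.20 and Stxbp3 by 0.18. These 3 had fallen after injury. Stx7, an endosomal syntaxin, had risen after injury and rose by a further 0.34 (adjusted p = 0.026), from 33.8, 34.1 and 27.4 to 40.9, 42.3 and 40.2 FPKM. Its call was lost without C_Spinal 3 (0.24, adjusted p = 0.0816), T_Spinal 1 or T_Spinal 2. Stx5 fell by 0.21 and Stx16 by 0.14 (log2). Neither passed after scaling to a common FPKM sum (-0.084 and -0.015). Vamp8 at -0.10, Stx4 at -0.01, Vamp3 at -0.07 and Snap29 at 0.07 did not pass, and the 95% intervals ran from -0.28 to 0.08 for Vamp8 and from -0.10 to 0.08 for Stx4. Stx2, at -0.16, passed only without Sham 2 or T_Spinal 1 among the settings that leave out 1 library (adjusted p = 0.0467 and 0.0434).

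In the mixed class, Syt11 rose by 0.54 (log2; SE 0.02; adjusted p = 1.42e-07), Syt14 by 1.01, Syt7 by 0.69 and Stxbp6 by 0.42. The Stxbp6 call was lost without C_Spinal 1 or 3 or T_Spinal 1 or 2 (adjusted p = 0.0514 to 0.0638). Syt13 fell by 0.47 after having fallen by 0.91 with injury, and stood at 4.60, 4.2 and 4.39 FPKM in T_Spinal. Stxbp5, the other tomosyn gene, fell by 0.46 (adjusted p = 3.05e-06). Its injury value of -0.08 (adjusted p = 0.0484) had the opposite sign, 0.05, under total-count scaling. That injury call was also lost under DESeq2 (adjusted p = 0.0679). Leaving out Sham 2 or 3, any C_Spinal library, or T_Spinal 1 or 2 lost it too (adjusted p = 0.0505 to 0.125). Rab3b fell by 0.47 and Rab3d by 0.37 (log2), the latter no longer called without C_Spinal 1 or 3 or T_Spinal 1 or 3 (adjusted p = 0.0603 to 0.0857). Stxbp2 at 0.27, Vamp5 at -0.44 and Stx11 at -0.60 did not pass, though under DESeq2 Stxbp2 (0.30) and Vamp5 (-0.42) did. Both passed with only the 2 groups compared (0.27 and -0.44). Stxbp2 passed under limma on log2(FPKM + 1) (0.29) and with a common FPKM sum (0.37), and Vamp5 at a minimum FPKM of 5 (-0.45). Stxbp2 also passed without Sham 1 (adjusted p = 0.0311), and Vamp5 without Sham 1 (0.0340) or T_Spinal 3 (-0.59, adjusted p = 0.0291).

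Cell markers moved here too. All 16 neuronal markers rose, with a median of 0.55, and all 8 oligodendrocyte markers rose, with a median of 0.35 (log2). All 6 Schwann cell markers fell, with a median of -1.61, as did both tested neutrophil markers and 2 of 4 tested endothelial markers. Of the 12 phagocyte markers 5 rose and 4 fell, and of the 6 astrocyte markers 3 rose and 1 fell. Over all tested genes 20.7% rose and 17.9% fell. The Schwann cell, endothelial, skeletal muscle, and neutrophil and lymphocyte marker sums were each highest in C_Spinal, as were Rab3b and Rab3d FPKM. Mean FPKM was highest in C_Spinal for other tested members too, namely Stx2, Stx3, Stx5, Stx8, Stx11, Stxbp5, Vamp3, Vamp5 and Vamp8. Of the 2 tested skeletal muscle markers, 0 passed. In T_Spinal against Sham these lists parted. All 6 Schwann cell markers were lower, and 3 of 4 tested endothelial and both tested neutrophil markers were higher, where 36.6% of all tested genes were lower and 35.0% higher. Rab3d was higher there by 0.40 (log2) and Rab3b did not pass. The part of these cells in the member changes was not tested.

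**Figure D5:**
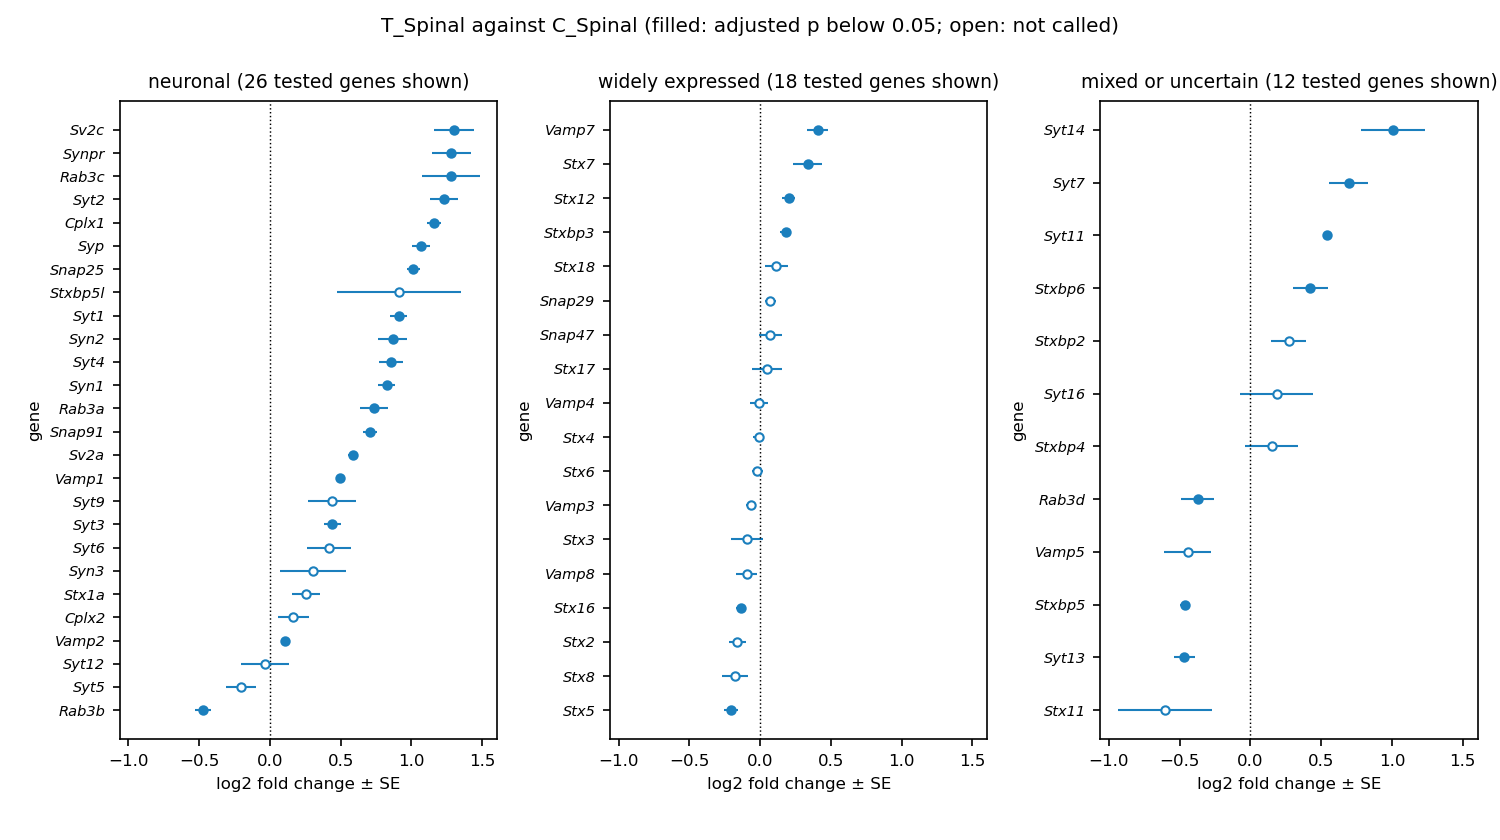
Log2 fold change ± SE of T_Spinal against C_Spinal (x axis; dotted line at 0) for 56 of the 58 tested members, by class; filled points passed an adjusted p below 0.05 and open points did not. Most neuronal points lie between 0.11 and 1.30 to the right of 0 with Rab3b at -0.47, and most widely expressed points lie near 0.

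The decoction group was last set against Sham. Of 28 tested neuronal members 27 fell and 1, Rab3b, did not pass, and their log2 fold changes had a median of -2.31. Of the 25 that reached FPKM 1 in each group, 24 fell. Over all tested genes 36.6% fell and 35% rose, with a median of -0.02. Widely expressed members rose in 6 cases and fell in 8 (median 0.05), and mixed members rose in 4 and fell in 7 (median -0.70). With no minimum 28 of 29 neuronal members fell, none rose, and over all 22666 genes 25.1% fell and 25.2% rose. No neuronal member's groups overlapped, and 75% of tested genes did not overlap either.

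Syt2 was again lowest, at 7.09% of its Sham mean (-3.98, log2; adjusted p = 1.62e-10). Cplx1 stood at 9.84%, Snap25 at 11.9%, Syt12 at 11.9% and Stxbp5l at 12.2% of Sham. Syp stood at 16.9%, Vamp1 at 13.4% and Syt4 at 47.9%. Vamp2 reached 61.2%. The 19 neuronal members that rose with decoction all remained below Sham by the test.

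Stxbp2 was 8.51-fold above Sham (3.09, log2; adjusted p = 1.13e-08), Stx11 4.09-fold, Vamp5 4.06-fold, Vamp8 3.34-fold and Stx3 2.24-fold. The members that did not differ from Sham by the test were Rab3b (0.09; 95% interval from -0.04 to 0.23), Stx2 (0.08), Stx6 (0.06), Stx8 (0.11), Vamp3 (0.04) and Stxbp4 (0.26), all log2. All of these but Stxbp4 were called higher than Sham under total-count scaling, at 0.20 to 0.27. Stx6 was also called higher without Sham 2 (0.095, adjusted p = 0.0481) and Stxbp4 without T_Spinal 3 (0.43, adjusted p = 0.0493). Vamp7 fell by 0.30 (adjusted p = 0.00375) on the TMM scale but did not pass under total-count scaling (-0.14, adjusted p = 0.0978), and Syt9 fell by 0.50 but did not pass without Sham 3 or T_Spinal 1 or 3 (adjusted p = 0.0516 to 0.0893) or under total-count scaling.

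Genes outside the families that work in the same step were taken from 4 lists. Of 18 active zone and priming genes, 17 fell with injury (median -3.19, log2) and 13 rose with decoction (median 0.73), where 37.4% and 20.7% of all tested genes did. Rims1, a scaffold that docks Rab3 vesicles, changed by -4.74 and then 1.53, Rph3a, a Rab3 effector, by -5.02 and 1.17, and the priming factor Unc13c by -4.19 and 1.45 (log2). Erc1, the widely expressed form of a scaffold whose neuronal form is Erc2, was the exception, at 0.18 with injury, where Erc2 fell by 3.67.

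All 4 SNARE disassembly genes fell with injury. The ATPase Nsf fell by 3.06 and the neuronal adaptor Napb by 4.35, against 0.51 for the general adaptor Napa and 1.11 for Napg (log2). Nsf and Napb rose with decoction, by 0.59 and 1.21, and Napa at -0.10 and Napg at 0.02 did not pass. All 7 vesicle recycling genes fell (median -1.0) and 3 rose with decoction. Of 8 other vesicle proteins tested all fell with injury, and 6 rose and 1 fell with decoction. Over all tested genes 37.4% fell with injury, 20.7% rose with decoction and 17.9% fell with it.

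Tested genes outside the families were compared with Snap25 over the 9 libraries. Placeholder names (such as LOC or RGD) and symbols not of standard form were left out. Of the rest, 11 ranked the libraries exactly as Snap25 FPKM did (Spearman 1). The first 5 by Pearson correlation on log2(FPKM + 1) were Ppp3cb, Gpld1, Atp6v1b2, Septin8 and Lgi1, with r of 0.993 to 0.997. The libraries fall into 3 groups, so the values describe likeness of pattern alone. Snap25 stood at 5.73% of Sham in C_Spinal, while these 5 stood at 18.3% to 67.0%.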

How the data were processed

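Poly(A) RNA from 9 spinal cord samples (3 Sham, 3 C_Spinal, 3 T_Spinal, grouped by title) was turned into strand-specific libraries read from both ends (mean insert 300 ± 50 bp), per the labels' protocols. HISAT and StringTie are named, without versions, per the submitters' processing notes. The build, the annotation and any use of strand in counting are not stated there, so reads of overlapping genes may be shared. The authors deposited a single table with whole-number read counts and FPKM per gene and library, in which a gene with a count of 0 is listed at an FPKM of 1e-04. FPKM sums differ between the groups.

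Counts were tested with edgeR 4.0.16 (R 4.3.3; quasi-likelihood test, TMM scaling, all 9 libraries in 1 fit, no covariate, two-sided, Benjamini-Hochberg adjustment over 14791 genes averaging FPKM 1 or more, which hold 99.7% of the counts). Intervals are 95% and use the residual degrees of freedom of the libraries (6). Groups count as free of overlap on TMM-scaled counts. Ratios of FPKM were tested by exact permutation. Alternatives were DESeq2 1.42.0, limma 3.58.1 on log2(FPKM + 1) and log2(FPKM + 0.1), other scalings, minimums of 0 and 5, the 2 groups alone, the replicate number as a block, and each library left out. Scripts were tested on simulated counts. Other software was data.table (version 1.17.8), pandas 2.3.3, numpy 2.4.6 and matplotlib 3.10.9 (Python 3.11.15).

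The members, classes, gene lists and tests were chosen with earlier results of these data known. Genes named with values are a fixed set of main family members, the 5 largest changes each way per comparison, members that went against their class, members called in the same direction in both injury and decoction comparisons, those not called different from Sham, and the 5 genes most like Snap25. Other genes were chosen after their values were seen, namely Syt3, Syt5, Syt6, Syt7, Syt9, Syt14, Syn3, Stxbp6 and those named from the vesicle release lists. The cell marker lists (neurons, phagocytes, oligodendrocytes, astrocytes, Schwann cells, endothelium, skeletal muscle, neutrophils and lymphocytes) describe the tissue. A few genes and the ratios that need them are not reported here, though they stay in the counts, sums and medians.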

Additional observations from a re-analysis of the deposited data

How the results depend on the processing

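The counts of neuronal members that fell or rose stayed within 1.5 times the main count in every setting run, except that 1 (Rab3b) and not 0 was called higher in T_Spinal than in Sham under total-count scaling and both limma pseudocounts. Widely expressed members called higher in T_Spinal than in Sham numbered 10 and not 6 of 18 under those 3 settings. Over all 14791 tested genes the number called higher there also grew, from 5171 to 6342 under total-count scaling and to 6391 and 6361 under limma (+ 1, + 0.1). Widely expressed members called lower in T_Spinal than in C_Spinal numbered 1 under both limma pseudocounts and 0 after scaling to a common FPKM sum. Over all tested genes the number called lower was 2650 in the main fit, 2366 and 2181 under limma and 1601 with the common sum. Counting the 12 mixed members with the 18 widely expressed ones gave 15 lower with injury, 8 higher and 5 lower with decoction, and 10 higher and 15 lower against Sham. The matching shares of all tested genes were 37.4%, 20.7%, 17.9%, 35.0% and 36.6%. Pair ratios were also taken from counts in place of FPKM. Library totals cancel in a ratio and gene lengths largely cancel between groups, so the unchanged direction there is no separate check.

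Injury values for Stxbp5 turned to 0.047 under total-count scaling and to 0.044 and 0.046 under limma, and for the uncalled Stx6 to -0.0037 with a common FPKM sum. The other reversals were in T_Spinal against C_Spinal, all of members not called. With DESeq2, relative log expression factors, total-count scaling, limma (+ 1, + 0.1) and a common FPKM sum, Stx4 gave 0.012, 0.012, 0.021, 0.024, 0.025 and 0.11, Stx6 0.0036, 0.0037, 0.013, 0.016, 0.016 and 0.098, and Vamp4 0.017, 0.016, 0.025, 0.029, 0.032 and 0.11. Syt12 gave 0.0085, 0.022 and 0.051 under limma and the common sum, which also gave Stx3 0.028, Vamp3 0.056 and Vamp8 0.026. Leaving out 1 library gave ranges of -0.018 to 0.14 for Stx17, -0.035 to 0.017 for Stx4, -0.18 to 0.20 for Syt12, -0.017 to 0.38 for Syt16 and -0.050 to 0.063 for Vamp4.

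Deviations from the group mean correlated at -0.075 to 0.035 between same-numbered libraries and at -0.089 to 0.074 between differently numbered ones. No pairing was seen, but 3 libraries a group cannot settle whether samples were paired. With the replicate block the calls over all genes were 5524 higher and 5442 lower for injury (5632 and 5526 without the block), 2827 and 2408 for decoction (3057 and 2650) and 5077 and 5299 for T_Spinal against Sham (5171 and 5409). Of the member calls, 3 were lost under the block: Rab3d and Stx7 with decoction and Stxbp5 with injury. Rises made up 53.6% of decoction calls over all genes, but 75.2% with a common FPKM sum. Against Sham they made up 48.9%, but 59.6% under total-count scaling and 59.8% under limma (+ 0.1). With 3 libraries a group no exact test can go below 0.1, and members under FPKM 1 are measured with few counts.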
